A study of Arabidopsis thaliana with 67 samples.

Results

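The REM genes (REPRODUCTIVE MERISTEM) are a plant-specific group of transcription factor genes that carry the B3 DNA-binding domain. The genes followed here are AT1G26680 on chromosome 1, AT2G24650 and AT2G24700 on chromosome 2, and the 7 genes AT4G31610, AT4G31615, AT4G31620, AT4G31630, AT4G31640, AT4G31650 and AT4G31660, which lie in a row on chromosome 4. They are 10 of the 60886 features of the deposited table, 29696 of which are gene rows. They were taken by locus identifier, and AT1G26680 had already been seen to be higher in stem-cell nuclei of these samples, so the set was in part chosen by that measured difference. Values of stem-cell against non-stem nuclei are therefore given below as a description, without a test.

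The B3 domain is shared by the auxin response factors, the LAV and RAV groups and the REM group, and it contacts DNA directly. REM genes are numerous in Arabidopsis, often stand in tandem arrays, and many were first noticed through RNA in shoot, inflorescence and floral meristems. Because neighbouring copies can act redundantly, few have an assigned function. REM1, also named REM34, is AT4G31610, a gene known from reproductive meristems. Its neighbour AT4G31615 is REM35 and AT4G31620 is REM36. REM34 and REM35 are known to act in early development of the male and female gametophytes.

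RNA of nuclei from Arabidopsis thaliana Col-0 was measured in 67 libraries of 4 cell populations and 4 genotypes. The genotypes are labelled ago5, ago9, ago59 (taken to carry both mutations) and wt, the wild type. The ARGONAUTE proteins made from AGO5 and AGO9 carry small RNAs that guide them to other RNAs. Seedling shoot apices were taken at 7 days from plants grown with 16 h of light and 8 h of dark, and 100 nuclei entered each Smart-seq3 library. Nuclei sorted by mCherry are the stem-cell group of the shoot apical meristem (ago5 8, ago9 7, ago59 7 and wt 5 libraries). Nuclei sorted by the DNA stain DAPI are the non-stem group (ago5 3, ago9 4, ago59 3 and wt 3 libraries). The promoter behind mCherry and the mutant alleles are not given in the sources used here. Sperm nuclei (3 libraries in each genotype) and vegetative nuclei (ago5 3, ago9 4, ago59 4 and wt 4 libraries) came from pollen of plants of 35 days, with 2 ng of RNA in a Smart-seq2 protocol. The labels do not say which libraries came from separate plants, so p-values measure the spread between these libraries, which may be technical.

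Totals per library were 1411187 to 5748459 counts in stem-cell, 2136643 to 6238028 in non-stem, 7161979 to 9488994 in sperm and 7690754 to 10193105 in vegetative nuclei. Levels are CPM, counts scaled to a library total of 1000000. A single count was worth 0.174 to 0.709 CPM in stem-cell libraries and 0.16 to 0.468 CPM in non-stem libraries, and intervals given below cover counting error only. AGO9 averaged 11.9 ± 14.7 CPM in ago9 and 13.0 ± 9.60 CPM in ago59 stem-cell nuclei, against 86.6 ± 40.2 CPM in wt (SD, n = 7, 7 and 5). AGO5 averaged 12.1 ± 10.8 CPM in ago5 and 7.87 ± 6.61 CPM in ago59 stem-cell nuclei, against 15.1 ± 11.7 CPM in wt (SD, n = 8, 7 and 5), so RNA of AGO5 does not separate these groups. In sperm it does, with 2.30 ± 1.09 CPM in ago5 and 3.03 ± 0.814 CPM in ago59, against 41.4 ± 7.51 CPM in wt (SD, n = 3 each). The stem-cell label was checked against CLV3, the peptide gene of the meristem's stem cells, which had counts in 27 of 27 stem-cell and 2 of 13 non-stem libraries. Genes of organelles and of ribosomal RNA made up 20.1% to 36.0% of stem-cell counts and 18.6% to 30.1% of non-stem counts.

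The sequences of the cluster are shown first, because of the genes nearest to each other in sequence, AT4G31640 and AT4G31650, the first had its RNA almost wholly in stem-cell nuclei and the second in both kinds of nuclei. Gene positions are from RefSeq assembly TAIR10.1; the submitters' processing notes name TAIR10. AT1G26680 lies at chr1:9219460-9223795 on the plus strand, AT2G24650 at chr2:10483253-10487773 and AT2G24700 at chr2:10512884-10515411, both on the minus strand. The chromosome 4 genes span 18.1 kb, chr4:15317499-15335630, with 4 on the plus and 3 on the minus strand. AT4G31610 (chr4:15317499-15320046, plus strand) and AT4G31615 (chr4:15320026-15322311, minus strand) overlap by 21 bases at their ends, and whether counting used strand is not given in the sources used here. The closest pair is AT4G31640 (chr4:15328271-15329791, plus strand, 4 exon blocks) and AT4G31650 (chr4:15330993-15333553, plus strand, 7 exon blocks). Their longest transcripts aligned over 1057 columns with 940 identical bases, which is 88.93% identity. In the stretch of coding sequence within 1 exon where the pair is most alike, 87 of 90 bases are identical. It is shown so that the closeness of the genes can be read directly, with capitals at the 3 differing bases, chr4:15329468-15329557 for AT4G31640 and chr4:15332251-15332340 for AT4G31650, plus strand, 5′ to 3′:
AT4G31640: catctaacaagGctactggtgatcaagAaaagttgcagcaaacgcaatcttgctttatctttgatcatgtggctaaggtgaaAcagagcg
AT4G31650: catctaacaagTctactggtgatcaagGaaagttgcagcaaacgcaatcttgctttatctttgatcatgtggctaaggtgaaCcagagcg

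The likeness extends upstream of the genes. The windows from 250 bases before to 50 bases after the annotated start aligned over 243 columns with 198 identical bases (81.5%). No other pair of start windows aligned as far. The next were AT1G26680 with AT4G31620 at 63.9% and AT4G31615 with AT4G31640 at 58.8%, each over 97 columns. Both windows are printed 5′ to 3′ on the plus strand, chr4:15328021-15328320 for AT4G31640 and chr4:15330743-15331042 for AT4G31650, with capitals at the 102 bases in each that have no identical partner in the alignment:
AT4G31640: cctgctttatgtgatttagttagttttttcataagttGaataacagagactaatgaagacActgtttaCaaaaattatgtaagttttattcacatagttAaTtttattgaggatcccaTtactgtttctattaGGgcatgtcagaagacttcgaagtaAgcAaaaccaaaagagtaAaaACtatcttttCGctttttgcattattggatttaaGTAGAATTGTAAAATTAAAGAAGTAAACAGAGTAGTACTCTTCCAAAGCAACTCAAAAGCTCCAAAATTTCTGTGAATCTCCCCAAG
AT4G31650: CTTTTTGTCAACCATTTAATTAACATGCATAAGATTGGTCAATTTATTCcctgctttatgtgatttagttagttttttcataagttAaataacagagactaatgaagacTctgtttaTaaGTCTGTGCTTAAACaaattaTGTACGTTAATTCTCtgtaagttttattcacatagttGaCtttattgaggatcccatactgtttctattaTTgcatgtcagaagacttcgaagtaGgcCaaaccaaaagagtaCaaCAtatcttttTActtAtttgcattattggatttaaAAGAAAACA

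The start window of AT1G26680 is shown because it is the member that led the choice of these genes. It lies at chr1:9219210-9219509 on the plus strand, and the capitals mark the letters TTAATGG, known as a sequence bound by the stem-cell regulator WUSCHEL:
AT1G26680: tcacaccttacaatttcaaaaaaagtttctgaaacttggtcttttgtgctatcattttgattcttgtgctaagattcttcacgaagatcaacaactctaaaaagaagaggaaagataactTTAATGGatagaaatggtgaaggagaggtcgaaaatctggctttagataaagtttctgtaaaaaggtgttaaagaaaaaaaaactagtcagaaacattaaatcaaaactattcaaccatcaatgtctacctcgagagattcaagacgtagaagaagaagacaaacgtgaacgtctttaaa

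In all, 6 short motifs were searched on both strands of the 10 windows and of 27443 start windows of the genome. TTAATGG was in 1 member, AT1G26680, and in 8.1% of all windows. TAAATGCA, an L1-box sequence of epidermal genes, was in none of the members and in 1.81% of all windows. TGACAG, bound by KNOX homeodomain proteins, was in AT2G24650 and AT4G31615 and in 7% of all windows. CATGCA, the RY sequence bound by LAV B3 proteins, was in AT4G31615 and AT4G31650 and in 9.72% of all windows. TGTCTC, the auxin response sequence, was in AT2G24650 and AT4G31615 and in 14.19% of all windows. The G-box CACGTG was in no member and in 7.68% of all windows. These letter matches are a description of the windows alone.

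Of the 10 genes, 6 were found almost wholly in stem-cell nuclei. They are AT1G26680 and the chromosome 4 genes AT4G31610, AT4G31615, AT4G31620, AT4G31630 and AT4G31640, and their fitted log2 difference, stem-cell minus non-stem and averaged over the 4 genotypes, was over 5. Among all 20753 features fitted, 0.236% had a difference over 5, and 4.06% were called higher in stem-cell nuclei at an adjusted p under 0.05 by edgeR. The other chromosome 4 gene with enough counts, AT4G31650, and both chromosome 2 genes had differences under 1. In libraries of bulk nuclei, fewer cells of a type and less RNA per cell cannot be told apart.

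**Figure D1:**
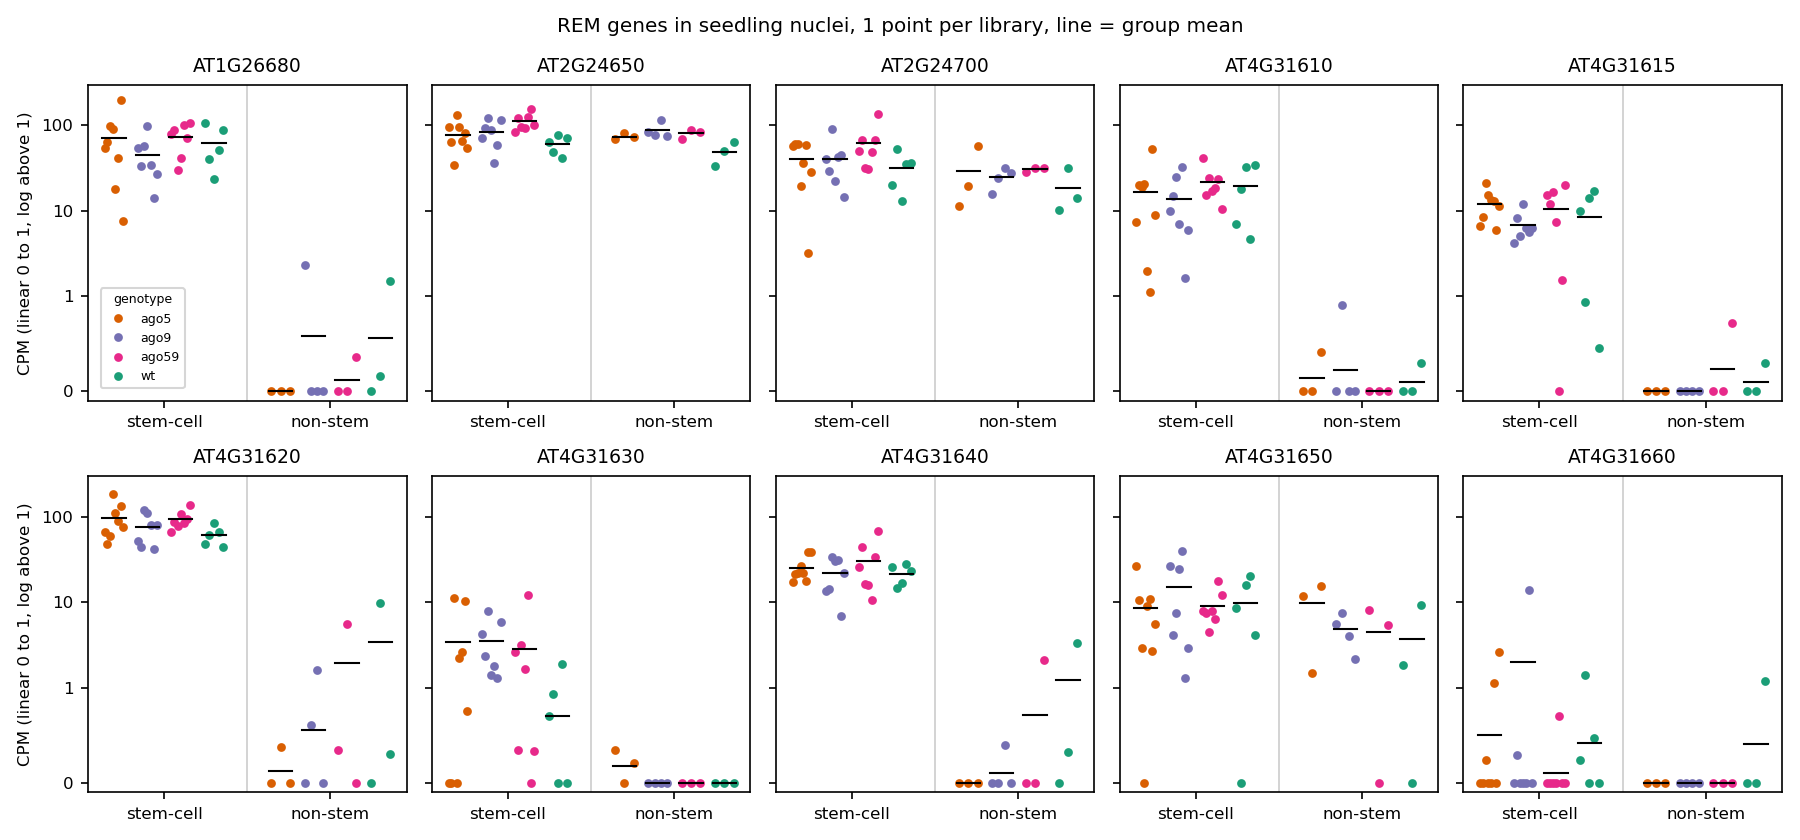
Each panel shows 1 REM gene, with CPM on a scale that is linear from 0 to 1 and logarithmic above, 1 point per library and a line at the mean of each genotype; stem-cell libraries are left and non-stem libraries right. AT1G26680, AT4G31610, AT4G31620 and AT4G31640 have all 27 stem-cell libraries above all 13 non-stem libraries, while AT2G24650, AT2G24700 and AT4G31650 overlap.

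AT1G26680 had a lowest, median and highest level of 7.53, 54.8 and 196 CPM in the 27 stem-cell libraries, against 0, 0 and 2.32 CPM in the 13 non-stem libraries. The groups do not overlap, and 9 of the 13 non-stem libraries have no count of the gene. In all it had 5072 counts in stem-cell and 14 counts in non-stem libraries. Its log2 difference was 8.11 ± 0.58 (SE) and ranked first of the 20753 features fitted. The lowest stem-cell library, ago5 replicate 9, and the highest, ago5 replicate 8, carry the same genotype and differ 26.0-fold. The coefficient of variation over stem-cell libraries was 63.7%, against 7.96% from counting alone.

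REM36, AT4G31620, was the chromosome 4 gene with the highest level per length. It had a lowest, median and highest level of 41.6, 79.8 and 186 CPM in stem-cell libraries, against 0, 0.304 and 9.94 CPM in non-stem libraries. Every stem-cell library is above every non-stem library, and its coefficient of variation of 40.4% is smaller than that of AT1G26680. Its log2 difference was 6.51 ± 0.42 (SE). Of its 84 counts in non-stem nuclei, 62 lie in 1 library, wt replicate 3, which had 0 counts of CLV3 and 8.34 CPM of STM, the meristem homeobox gene. A further 13 lie in ago59 replicate 2, which had 0 counts of CLV3, STM and mCherry. The other genes of the 6 added 3 counts in wt replicate 3 and none in ago59 replicate 2.

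AT4G31640 had 6.93, 22.2 and 67.5 CPM as the lowest, median and highest of its stem-cell libraries, against 0, 0 and 3.35 CPM in non-stem libraries. Again no library overlaps, and the log2 difference was 6.51 ± 0.53 (SE). REM1, AT4G31610, had 1.13, 17.0 and 53.1 CPM in stem-cell libraries, against 0, 0 and 0.907 CPM in non-stem libraries, and a difference of 7.01 ± 0.70 (SE). The groups do not overlap, though ago5 stem-cell replicate 7 holds 3 counts of REM1, as does the deeper ago9 non-stem replicate 2. In all, 4 members had all 27 stem-cell libraries above all 13 non-stem libraries, a pattern that 0.0916% of the features fitted showed.

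The remaining 2 of the 6 had fewer counts. REM35, AT4G31615, had 0, 8.51 and 21.3 CPM as the lowest, median and highest of stem-cell libraries, against 0, 0 and 0.715 CPM in non-stem libraries. Its groups overlap through 1 stem-cell library without a count, ago59 replicate 5, and through ago59 non-stem replicate 3 with 2 counts. The pooled ratio was 146 (95% interval of counting, 49.8 to 710). AT4G31630 had 0, 1.65 and 12.0 CPM in stem-cell libraries, against 0, 0 and 0.341 CPM in non-stem libraries, with counts in 21 of 27 and 2 of 13 libraries.

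AT4G31650 and the chromosome 2 genes were found in both kinds of nuclei. AT4G31650 had 0, 7.86 and 39.5 CPM as the lowest, median and highest in stem-cell libraries, against 0, 5.36 and 15.7 CPM in non-stem libraries, and a log2 difference of 0.96 ± 0.56 (SE). The groups overlap over most of their range. AT2G24700 had 3.18, 40.1 and 137 CPM in stem-cell libraries, against 10.3, 27.9 and 56.6 CPM in non-stem libraries, with a difference of 0.72 ± 0.27 (SE). AT2G24650 had 33.9, 83.9 and 156 CPM in stem-cell libraries, against 33.2, 74.7 and 115 CPM in non-stem libraries, with a difference of 0.19 ± 0.15 (SE). AT4G31660, the last gene of the array, was at or near 0 nearly everywhere: of its 60 stem-cell counts, 42 lie in ago9 replicate 7, and its 4 non-stem counts lie in wt replicate 4. It did not pass the filter on low counts and was not fitted.

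**Figure D2:**
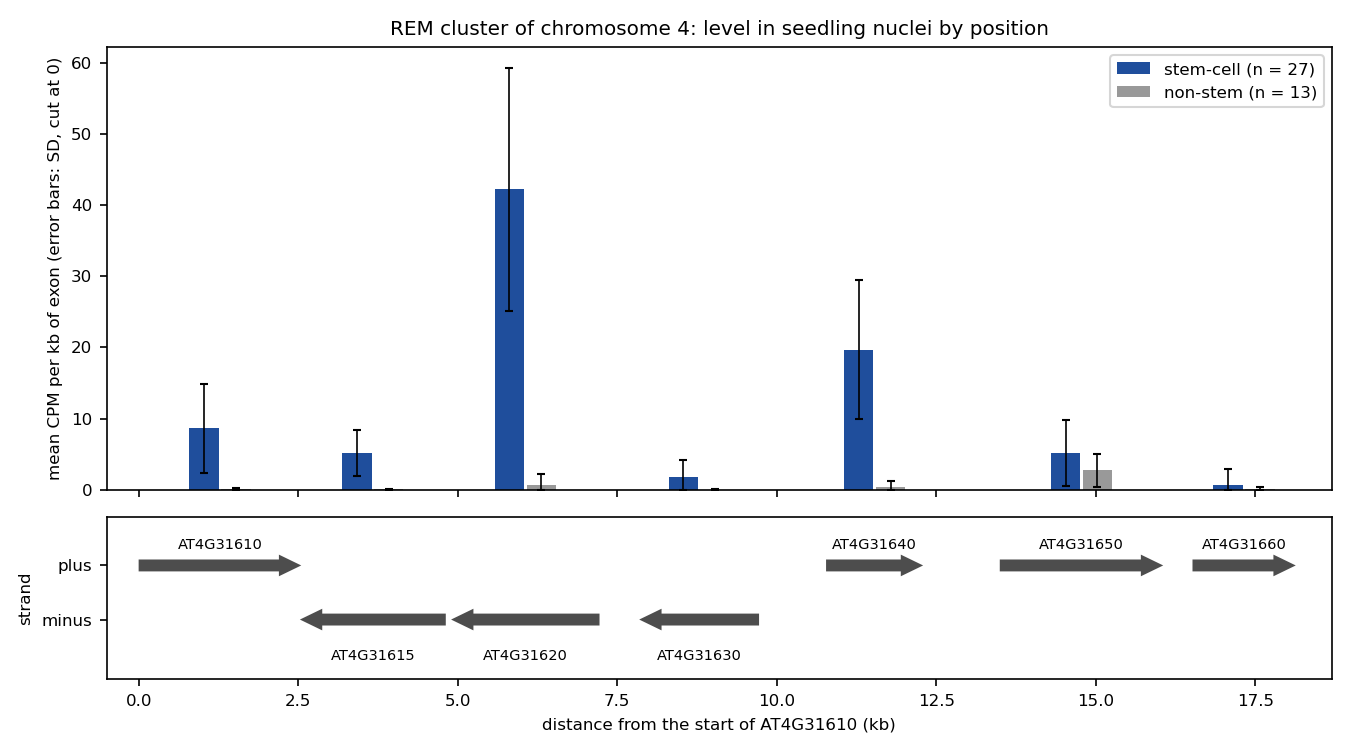
The upper panel gives the mean CPM per kb of exon of the 7 chromosome 4 REM genes in stem-cell and non-stem libraries (error bars show the SD, cut at 0), placed at each gene's middle, and the lower panel gives the genes' strands and extents in kb from the start of AT4G31610. AT4G31620 is the highest in stem-cell nuclei. Among the genes with more than a few counts, AT4G31650 is the one whose non-stem bar is the largest share of its stem-cell bar.

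The closest pair in sequence differed in pattern. AT4G31640 took 72.7% of the pair's counts in stem-cell nuclei (2076 against 781 counts of AT4G31650) and 7.52% in non-stem nuclei (20 against 246). Per kb of exon, AT4G31640 was above AT4G31650 in 26 of 27 stem-cell libraries and in 1 of 13 non-stem libraries. The 2 genes share few exact words of 50 bases: 0.462% of the exonic words of AT4G31640 and 0.289% of those of AT4G31650 occur in the other. Across all 10 members at most 0.513% of such words, in AT4G31615, are shared with another gene.

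**Figure D3:**
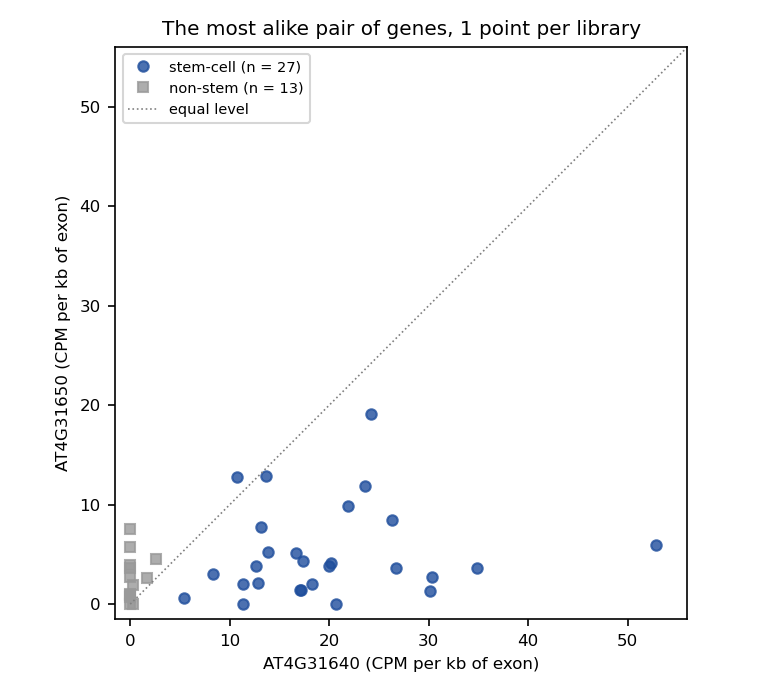
Each point is 1 seedling library, with AT4G31640 on the horizontal and AT4G31650 on the vertical axis, both in CPM per kb of exon, and the dotted line marks equal levels. Stem-cell libraries lie mostly below the line and non-stem libraries mostly on the vertical axis, where AT4G31640 is at or near 0.

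Per length, in CPM per kb of exon and as mean ± SD over the 27 stem-cell libraries, AT4G31620 stood highest at 42.2 ± 17.1. AT2G24700 (22.7 ± 13.9), AT2G24650 (22.7 ± 8.30), AT4G31640 (19.7 ± 9.76) and AT1G26680 (18.0 ± 11.4) followed. Below them came AT4G31610 (8.64 ± 6.29), AT4G31615 (5.18 ± 3.19), AT4G31650 (5.15 ± 4.65), AT4G31630 (1.82 ± 2.31) and AT4G31660 (0.663 ± 2.29). Apart from AT4G31620 against AT2G24700, neighbours in this order are nearer than the larger of their SDs. In the 13 non-stem libraries the order was led by AT2G24650 at 19.8 ± 5.22, AT2G24700 at 13.2 ± 6.30 and AT4G31650 at 2.72 ± 2.31, and the other members averaged under 1.

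Within each genotype, stem-cell minus non-stem was above 0 on the log2 scale for each gene found almost wholly in stem-cell nuclei. Errors were widest for AT4G31630. Its differences were 3.94 ± 1.91 in ago5, 6.41 ± 1.96 in ago9, 6.14 ± 2.25 in ago59 and 4.28 ± 2.00 in wt (SE). In wt it had 9 stem-cell counts over 5 libraries. The stem-cell minus non-stem log2 difference of AT1G26680 was 10.7 ± 1.41 in ago5, 6.12 ± 0.88 in ago9, 8.77 ± 1.23 in ago59 and 6.81 ± 1.03 in wt (SE). All 3 ago5 non-stem libraries have 0 counts, so that the ago5 value depends on the prior count of the fit. For AT4G31620 the differences were 9.42 ± 1.05 in ago5, 7.05 ± 0.78 in ago9, 5.64 ± 0.77 in ago59 and 3.92 ± 0.68 in wt (SE). Of the 63 counts of AT4G31620 in wt non-stem libraries, 62 lie in replicate 3, and the difference between genotypes was not tested.

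The sum of the 6 genes was 71.3 to 437 CPM in stem-cell libraries, with a median of 185 CPM, against 0 to 10.4 CPM in non-stem libraries, with a median of 1.51 CPM. The reporter and the meristem genes CLV3 and STM were also higher in stem-cell libraries. CLV3 had 1.88 to 71.9 CPM in stem-cell and 0 to 1.43 CPM in non-stem libraries, STM had 24.5 to 164 CPM and 0 to 14.7 CPM, and mCherry had 2.29 to 69.6 CPM and 0 to 6.44 CPM. Other meristem genes overlapped between the groups: CLV1 had 27.7 to 90.4 CPM and 6.69 to 65.3 CPM, and KNAT1 had 14.2 to 123 CPM and 1.87 to 47.0 CPM. WUS had no count in 7 of 27 stem-cell libraries. Non-stem library ago9 replicate 2 had 13.9 CPM of STM but 1.51 CPM of the 6 genes. Non-stem library ago59 replicate 3 had 14.7 CPM of STM, 4 counts of CLV3, 18 counts of mCherry and 3.22 CPM of the 6 genes. The summed level of 2 leaf genes was high in both populations, 13167 to 27429 CPM in stem-cell libraries and 14805 to 33457 CPM in non-stem libraries. The part of the nuclei mixture in the REM values was not tested.

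Likeness was measured as Pearson's r over the 16 group means of log2(CPM + 1), among 16375 genes. The 16 means fall into 4 cell types, and seedling and pollen libraries differ in protocol, so r is a description of that pattern. The genes nearest to AT1G26680 were AT3G19184, another B3 gene (r = 0.998), REM1 (0.997), AT4G31640 (0.996), CLV3 (0.994) and AT4G31620 (0.993). AT4G31620 and AT4G31640 were each other's nearest gene at r = 0.999, and the second gene for AT4G31620 was AT3G59270. AT2G24650 stood nearest to the SUMO protease gene ULP1D and to AT5G13980, and AT2G24700 to the bHLH gene CIB5 and to AT5G45510.

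Other B3 genes give the setting. They are 89 gene rows, 87 of them with an annotated description that names B3 and the rest taken by identifier. B3 genes described by another name are left out, so the list is not the whole family. Of these 89, 41 were fitted between stem-cell and non-stem nuclei. By edgeR's quasi-likelihood test with Benjamini-Hochberg adjustment 13 changed, 11 higher and 2 lower, which is 31.7% of those fitted against 6.93% of all features. AT3G19184 had a log2 difference of 6.47 ± 0.49 (SE, adjusted p = 8.24e-14) and a mean of 31.7 ± 15.9 CPM in stem-cell and 0.336 ± 0.674 CPM in non-stem libraries. AT4G31690, on chromosome 4 shortly beyond the array, had a difference of 6.21 ± 0.87 (adjusted p = 3.21e-06), AT4G34400 4.11 ± 0.78 (adjusted p = 0.000359) and AT2G35310 2.68 ± 0.56 (adjusted p = 0.00114). FUS3, a LAV gene of seed maturation, and NGA3, a RAV gene of the NGATHA group, are the 2 that were lower, with log2 differences of -3.34 ± 0.84 (adjusted p = 0.00828) and -0.62 ± 0.15 (adjusted p = 0.00707), and were named after their values were seen. FUS3 had counts in 7 of 27 stem-cell and 6 of 13 non-stem libraries, at up to 3.63 CPM in stem-cell and up to 6.89 CPM in non-stem nuclei. Of 44 gene rows that neighbour the members, 23 were fitted and 4 changed, all higher. They are AT4G31690, AT4G31570 (0.62 ± 0.14), AT2G24645 (1.59 ± 0.36) and AT4G31680 (4.62 ± 1.18), and all but AT4G31570 are B3 genes counted above too. UBP18, which follows AT4G31660, averaged 17.7 ± 13.8 CPM in stem-cell and 12.2 ± 9.68 CPM in non-stem libraries, and UTr7, which precedes AT4G31610, averaged 13.3 ± 7.82 and 11.3 ± 5.59 CPM (SD, n = 27 and 13).

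Between the ago mutants and wt, none of the 10 genes was called. In stem-cell nuclei 9 members could be tested in each of 3 mutant comparisons with wt and none passed an adjusted p of 0.05 by edgeR's quasi-likelihood test with Benjamini-Hochberg adjustment. Calls made up 1.33% of all 18633 features for ago5, 0.671% for ago9 and 2.94% for ago59. In non-stem nuclei AT2G24650, AT2G24700 and AT4G31650 could be tested, and none of the 9 tests was called, where the calls made up 0.382% of 18334 features for ago5, 0.245% for ago9 and 1.2% for ago59. Of the 36 tests 2 had an unadjusted p under 0.05, and DESeq2 called none. The 3 mutants share the wt libraries in each cell type. Among the listed other B3 genes (35 tested in stem-cell, 27 in non-stem nuclei) and neighbouring rows (22 and 20), none was called in these 6 comparisons.

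**Figure D4:**
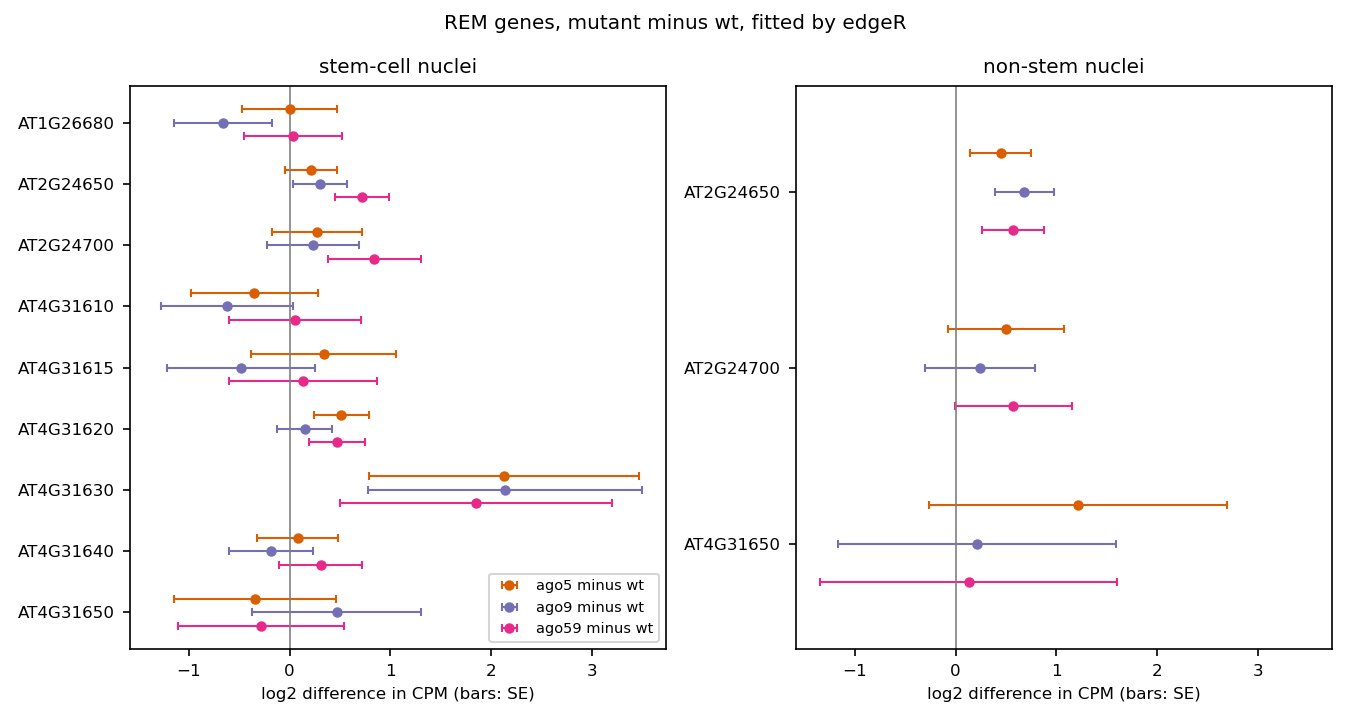
Log2 difference in CPM between each mutant and wt, with its SE, for the REM genes that could be tested in stem-cell nuclei (left) and non-stem nuclei (right). AT2G24650 and AT2G24700 lie above 0 in all 6 comparisons, AT4G31630 has the widest errors in stem-cell nuclei, and no value was called.

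AT2G24650 came closest to a call. In ago59 stem-cell libraries it had 83.9, 99.5 and 156 CPM as the lowest, median and highest of 7, against 63.0, 48.8, 76.7, 41.7 and 71.8 CPM in the 5 wt libraries. Every ago59 library is above every wt library, as for 1.7% of the features tested. In the stem-cell nuclei of the other mutants no member was above wt in this way, against 0.682% of features for ago5 and 0.961% for ago9. The log2 difference was 0.71 ± 0.27 (SE, adjusted p = 0.186 by edgeR's quasi-likelihood test with Benjamini-Hochberg adjustment, unadjusted p = 0.0115), and over the alternatives the adjusted p ran between 0.0787 and 0.396. In non-stem nuclei it had 69.6, 80.2 and 72.1 CPM in ago5, 83.0, 78.0, 115 and 74.7 CPM in ago9, and 69.1, 88.9 and 83.0 CPM in ago59, against 33.2, 49.9 and 63.9 CPM in wt. Every mutant library is above every wt library there, as for 9.05% of the features for ago5, 6.05% for ago9 and 10.4% for ago59. The reverse, every mutant library below every wt library, held for 6.91%, 4.28% and 8.19% of the features, in that order. The ago9 difference was 0.68 ± 0.29 (SE, adjusted p = 0.564 by the same edgeR test, unadjusted p = 0.0265). RBCS1A, an abundant leaf gene of photosynthesis, also separated wt from the mutants, at 8844 ± 480 CPM in ago59 and 22588 ± 1207 CPM in wt stem-cell nuclei (SD, n = 7 and 5). The other leaf gene looked at, CAB2, went the other way, at 6167 ± 299 CPM in ago59 and 3378 ± 341 CPM in wt stem-cell nuclei. The part of these leaf genes in the AT2G24650 values was not tested.

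No stem-cell member was called against wt, and the estimates came with wide errors. AT1G26680 had differences of 0.00 ± 0.47 in ago5, -0.66 ± 0.48 in ago9 and 0.03 ± 0.48 in ago59 (log2, SE). Its level averaged 71.4 ± 59.5 CPM in ago5, 45.4 ± 27.5 CPM in ago9, 73.4 ± 28.7 CPM in ago59 and 62.2 ± 34.6 CPM in wt (SD, n = 8, 7, 7 and 5), and the libraries of each mutant overlap those of wt. AT4G31620 had differences of 0.51 ± 0.27 in ago5 (edgeR adjusted p = 0.511), 0.15 ± 0.28 in ago9 and 0.47 ± 0.28 in ago59. AT4G31630 had the largest estimates, 2.12 ± 1.33 in ago5, 2.13 ± 1.36 in ago9 and 1.85 ± 1.35 in ago59, on 206 counts over all stem-cell libraries, and none was called. These estimates share a wt level that rests on 9 counts, with no count in 2 of the 5 wt libraries. Summed over the 7 chromosome 4 genes, the level averaged 163 ± 53.6 CPM in ago5, 139 ± 52.5 CPM in ago9, 169 ± 37.0 CPM in ago59 and 122 ± 29.5 CPM in wt stem-cell nuclei (SD, n = 8, 7, 7 and 5).

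In pollen the 10 genes were nearly absent. Together they had 49 of 101352830 counts in sperm libraries and 72 of 131713442 counts in vegetative libraries. AT2G24650 held 60 of the vegetative counts, in 13 of 15 libraries, and 7 of the sperm counts, in 4 of 12 libraries. AT4G31630 had 18 counts in 5 of 12 sperm libraries and 4 in vegetative libraries, and AT4G31650 had 11 and 4. AT4G31620, the highest member per length in stem-cell nuclei, had 0 counts in both, which allows up to 0.316 to 0.419 CPM in a sperm library and 0.294 to 0.390 CPM in a vegetative library (3 counts). No member passed the filter on low counts in pollen, so none was tested between sperm and vegetative nuclei or between a mutant and wt there. The features called in those mutant comparisons were 0.0312%, 3.37% and 0.145% in sperm and 0.0111%, 0.1% and 1.69% in vegetative nuclei, for ago5, ago9 and ago59 in that order. Of 13 listed other B3 genes tested between wt sperm and vegetative nuclei, 12 changed (10 higher and 2 lower in sperm), against 91.1% of all features. HSI2, a LAV repressor of seed genes, was higher in sperm by 4.56 ± 0.24 (log2, SE, edgeR adjusted p = 2.47e-12).

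**Figure D5:**
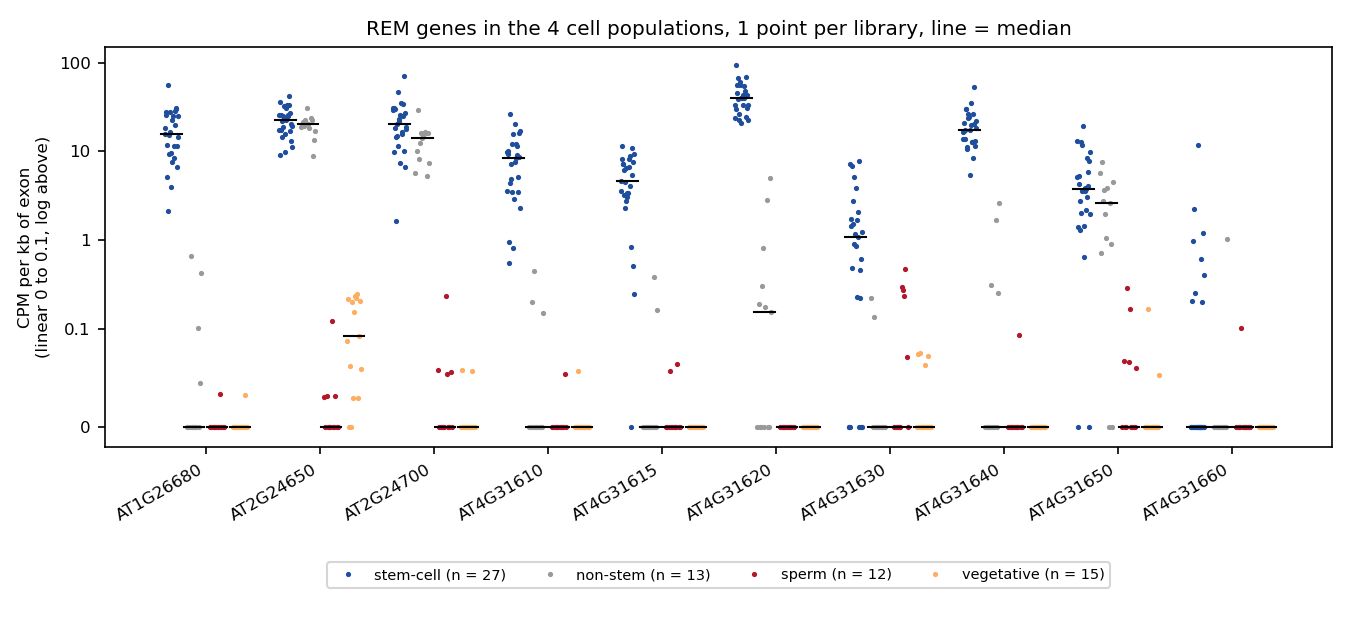
CPM per kb of exon for the 10 REM genes in the 4 cell populations, on a scale that is linear from 0 to 0.1 and logarithmic above, with 1 point per library and a line at the median. Pollen medians are at 0 for all members in sperm nuclei and for all but AT2G24650 in vegetative nuclei.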

How the data were processed

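The deposited table holds expected counts per feature, which are estimated counts that need not be whole, for 67 libraries; 7.58% of its values are not whole, and the expected counts were rounded. The submitters' processing notes name DESeq2 and the build TAIR10. The aligner, the counting method, its use of strand and of molecular identifiers are not given in the sources used here. Of the columns, 60 carry the name of their library and 7, of wt pollen, were assigned by elimination; 0 columns were unused. Replicates differed by more than counting noise in every pair (chi-square per degree of freedom of at least 4.13 in every group).

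Counts were fitted with edgeR 4.0.16 in R 4.3.3 (TMM, filterByExpr with a minimum count of 10 and total of 15, glmQLFit, glmQLFTest), on all 4 genotypes of a cell type for mutants, on wt for sperm against vegetative nuclei, and on all seedling libraries for stem-cell against non-stem nuclei. A feature is called where its adjusted p (Benjamini-Hochberg, over all features) is under 0.05. Adjusted p-values are from this edgeR test, except that ranges and lowest values over the alternatives also take in DESeq2. SE is the absolute log2 difference divided by the square root of F. CPM scales a library to 1000000 counts.

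Alternatives were DESeq2 1.42.0, RLE size factors, no low-count filter, removal of organelle and ribosomal RNA genes, only the groups compared, a replicate block, each genotype choice and leaving out each library. Leaving out libraries and the unfiltered fit for stem-cell against non-stem nuclei were chosen after seeing the data. Recovery of known changes by the fit was tested on simulated data. Sequences were read from RefSeq TAIR10.1 by locus identifier (10 of 10 matched) and aligned with Biopython 1.88 (match 1, mismatch -1, gap opening -3, gap extension -1).

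The members and gene lists were chosen with earlier results of these data known. By the naming rule the text names the members, AGO5 and AGO9, up to 4 called genes per list and comparison by smallest adjusted p, and the genes most like a member (5 for AT1G26680, 2 for other members whose highest group mean is at least 20 CPM, among genes reaching 10 CPM). Outside it, CLV3, STM and mCherry are named as checks of the sort. UBP18, UTr7, RBCS1A, CAB2, CLV1, KNAT1, WUS, FUS3 and NGA3 were chosen after their values were seen.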

Additional observations from a re-analysis of the deposited data

Results flagged for a closer look

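A single library stood far from the others of its group in 5 of 39 groups of member values with 4 to 10 libraries. Chance flags about 1 in 20 groups, and over all features tested in the same groups of libraries 11.8% were this far apart, so the members' count is near that of the other features. AT2G24700 was at 137 CPM in ago59 stem-cell replicate 8, where the next library had 68.2 CPM, and at 90.9 CPM in ago9 stem-cell replicate 4, where the next had 44.9 CPM. REM1 (AT4G31610) was at 53.1 CPM in ago5 stem-cell replicate 8, where the next had 20.3 CPM. AT4G31630 was at 12.0 CPM in ago59 stem-cell replicate 5, where the next had 3.15 CPM. AT4G31650 was at 26.8 CPM in ago5 stem-cell replicate 1, where the next had 10.9 CPM. Of the 39 groups, all but the 3 of ago9 non-stem nuclei are stem-cell groups.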

How the results depend on the processing

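No REM gene was called between a mutant and wt in any alternative run. All 182 alternative counts in the mutant and the sperm against vegetative comparisons were 0. In pollen, members were tested only in the unfiltered fit, so the other pollen counts of 0 hold no test of a member. For stem-cell minus non-stem, 6 members stayed over 2 on the log2 scale in the alternatives run, except the unfiltered fit, which had 7. With a replicate block, 0 members were called in every mutant comparison of stem-cell and non-stem nuclei. The lowest edgeR adjusted p with this block in stem-cell nuclei was 0.297. Same-numbered libraries did not deviate together (correlations of -0.0317 to 0.0351 in stem-cell nuclei), so the numbers were not taken as pairs. The lowest adjusted p of any setting was 0.0787, for AT2G24650 in ago59 stem-cell nuclei with only the compared groups fitted. In wt alone, the stem-cell minus non-stem difference was 6.81 for AT1G26680, 7.20 for AT4G31610 and 6.04 for AT4G31615. It was under 5 for AT4G31620 (3.92), AT4G31630 (4.28) and AT4G31640 (4.13), and the cause was not tested. AT4G31630 also fell to 4.95 with a single library left out. Leaving out single libraries gave 7.94 to 9.10 for AT1G26680, 6.34 to 7.56 for AT4G31620 (7.56 without wt non-stem replicate 3, 7.28 without ago59 non-stem replicate 2) and 6.37 to 7.57 for AT4G31640 (7.57 without ago59 non-stem replicate 3). The size of these differences is set by few counts, 14 of AT1G26680 and fewer of REM1, REM35 and AT4G31630 in all non-stem libraries. In a single pollen library a level under 0.294 to 0.419 CPM (3 counts) cannot be told from 0.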
